A study of Mus musculus with 21 samples.

Results

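The vitamin D receptor gene Vdr and the retinoid X receptor genes Rxra, Rxrb and Rxrg were followed in 3T3-L1 adipocytes, a mouse preadipocyte line that is turned into fat cells in culture. The members were chosen by symbol: 7 of 45101 probe sets carried one of the 4 names, and each gene was read on its probe set with the highest mean over 21 arrays. The 4 genes are 4 of 18194 with a probe set of their own, and all 4 were among the 12156 bright enough to be tested. After 14 days of differentiation the cells received 20 nM dexamethasone (Dex), a synthetic glucocorticoid, for 2 h, 24 h or 6 d, or the inflammatory cytokine tumour necrosis factor alpha (TNF) for the same times. The control was untreated, at 0 h. Each of the 7 groups had 3 arrays, which the labels call biological replicates. No TNF dose and no vehicle is given in the sources used here, and the control stands for all 3 times, so time in culture and time of treatment cannot be told apart. The study set out to follow gene expression while both agents bring about insulin resistance.

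The vitamin D receptor is a nuclear receptor for the hormone calcitriol. It binds DNA as a pair with a retinoid X receptor (RXR), and RXR is also the partner of the retinoic acid receptors, the thyroid hormone receptors, the liver X receptors and the PPARs, among them the fat cell regulator PPAR gamma. Calcitriol is made by Cyp27b1 and broken down by Cyp24a1, and Cyp24a1 is the classic gene that an active vitamin D receptor turns on.

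All levels are log2 values after robust multi-array averaging (RMA), so a difference of 1 is a doubling, and levels of different genes are not compared because each probe set has its own brightness. A gene is called where limma's adjusted p, by Benjamini-Hochberg over 12156 genes, was under 0.05. The array TNF 6 d replicate 2 stood apart: the SD over its probe sets was 2.04, where the 20 others had 2.44 to 2.51, and its lowest correlation with a replicate was 0.842, where theirs were 0.978 to 0.997. The actin and Gapdh control probes at the 3' end exceeded those at the 5' end by 2.00 on that array, by 0.683 to 0.777 on 3 further arrays (replicate 2 of Dex 6 d, replicate 2 of TNF 2 h, replicate 3 of TNF 24 h), and by at most 0.283 on the remaining 17. Values are from all 21 arrays unless said otherwise. For the 4 receptor genes, values without TNF 6 d replicate 2 or without all 4 arrays are added where a call changed, and for the gene lists the counts without TNF 6 d replicate 2 are added. The treatments were checked on Fkbp5, a glucocorticoid target, which was higher by 3.74, 4.07 and 4.02 after 2 h, 24 h and 6 d of Dex, and on Tnfaip3, an NF-kB target, which was higher by 4.85 and 3.45 after 2 h and 24 h of TNF. Tnfaip3 was higher by 0.13 after 6 d of TNF (not called), and by 1.38 without TNF 6 d replicate 2.

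Vdr was highest after 6 d of Dex, and it was above control on every array of all 3 Dex times. It was also above control after 6 d of TNF and not after 2 h of TNF. On probe set 1418176_at the control arrays read 5.95, 6.23 and 6.37. The Dex arrays read 7.29, 7.04 and 7.33 at 2 h, 6.83, 7.0 and 7.07 at 24 h, and 7.84, 8.32 and 8.07 at 6 d. No Dex array overlapped the control, and the 6 d arrays lay above every other array of the series. Of all genes, 12.4%, 16.8% and 16.5% lay wholly above control at 2 h, 24 h and 6 d of Dex. Because Vdr was chosen with its rise under both agents known, its differences from control are given without a test.

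Vdr averaged 7.22 ± 0.16 after 2 h of Dex and 6.18 ± 0.21 in control (SD, n = 3 each), a difference of 1.04 ± 0.24 (SE) or 2.05-fold. After 24 h of Dex the mean was 6.96 ± 0.12 (SD), 0.78 above control or 1.72-fold. After 6 d of Dex it was 8.08 ± 0.24 (SD), 1.89 above control or 3.72-fold. The level was thus up early, no higher at 24 h, and up again at 6 d.

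Under TNF the Vdr arrays read 6.04, 6.55 and 6.15 at 2 h, 6.89, 6.36 and 7.58 at 24 h, and 7.36, 6.87 and 7.36 at 6 d. The 2 h and 24 h arrays overlapped the control, since TNF 24 h replicate 2, at 6.36, lay just under the highest control array. The 6 d arrays were all above the control, as were those of 7.51% of all genes. The differences from control were 0.06 at 2 h, 0.76 at 24 h and 1.01 at 6 d, or 1.70-fold and 2.01-fold at the later times, and the last was 1.17 without TNF 6 d replicate 2. TNF 24 h was the most spread of all groups, with an SD of 0.61, and its replicate 3, the highest, was also the array of that group with the largest 3' minus 5' difference. Without the 4 arrays of largest 3' minus 5' difference, Vdr at 24 h of TNF was 0.44 above control.

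**Figure D1:**
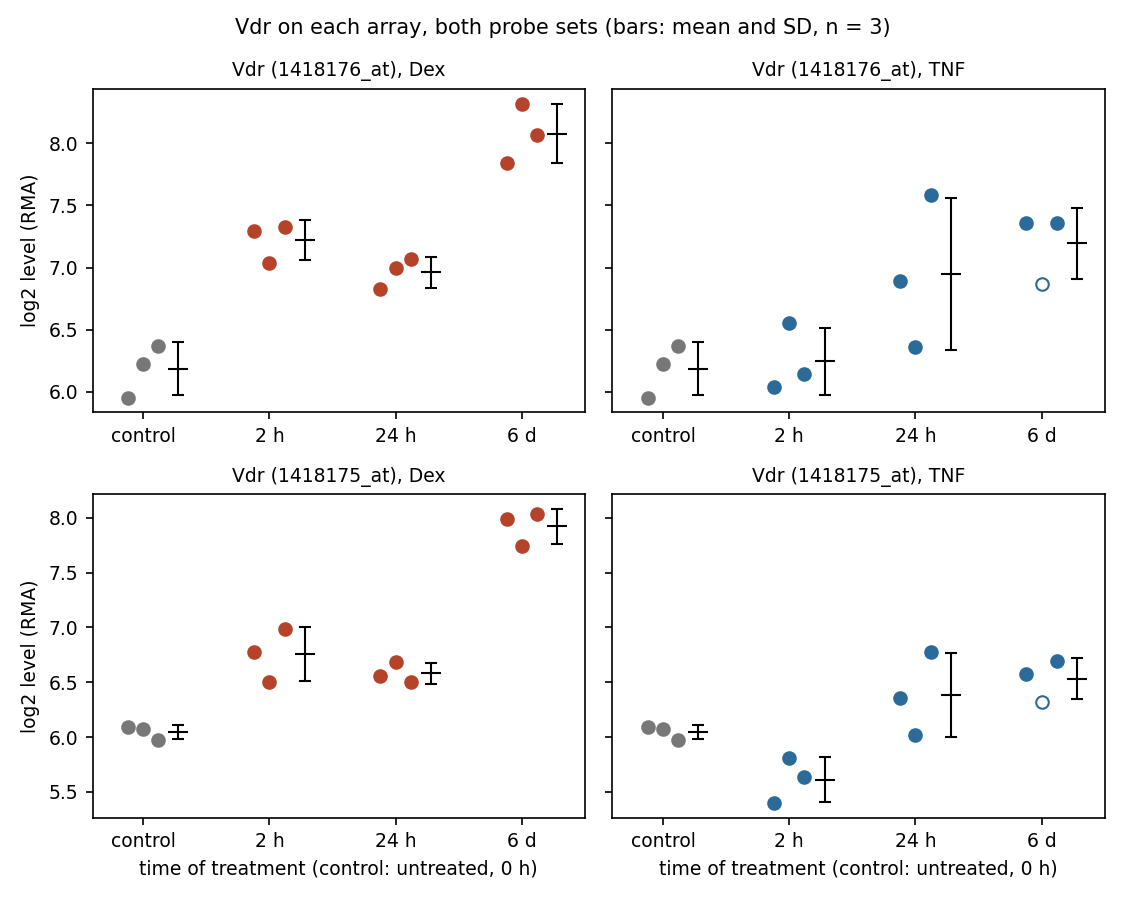
Vdr log2 level on each array, by probe set (rows) and agent (columns), with control at the left of each time series. Filled points are arrays, the open point is TNF 6 d replicate 2, and bars give the mean and SD of 3 arrays. Dex arrays lie above control at every time and highest at 6 d, while TNF arrays at 2 h overlap control on 1418176_at and below it on 1418175_at.

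The other Vdr probe set, 1418175_at, carries the same transcript accession in the platform annotation and gave the same order over the Dex times. Its control arrays read 6.09, 6.07 and 5.97, and its Dex arrays 6.78, 6.50 and 6.99 at 2 h, 6.55, 6.68 and 6.50 at 24 h, and 7.99, 7.74 and 8.03 at 6 d. The differences from control were 0.71, 0.54 and 1.88. For TNF it differed from the first probe set at 2 h: the arrays read 5.40, 5.81 and 5.63, all below control, a difference of -0.43. At 24 h and 6 d of TNF the difference was 0.34, with overlap, and 0.49, without overlap. A fall of Vdr at 2 h of TNF therefore rests on 1 probe set, and a rise there on neither.

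Dex and TNF were compared directly at each time. At 2 h Vdr averaged 7.22 ± 0.16 under Dex and 6.25 ± 0.27 under TNF (SD, n = 3 each), a difference of 0.97 ± 0.24 (limma adjusted p = 0.0169). The TNF 2 h mean was close to the control mean, 6.18. The 2 h difference therefore largely repeats the known rise of 1.04 from control to 2 h of Dex, and no conclusion is drawn from its p-value. At 24 h the means were 6.96 under Dex and 6.95 under TNF. The difference of 0.02 was not called (limma adjusted p = 0.988), and its 95% interval, -0.49 to 0.53, does not show that the agents acted alike. At 6 d the means were 8.08 ± 0.24 under Dex and 7.19 ± 0.28 under TNF, a difference of 0.88 ± 0.24 (limma adjusted p = 0.0142), or 0.72 ± 0.24 (limma adjusted p = 0.0300, 30.1% of genes called) without TNF 6 d replicate 2. Of all genes tested, 5.97%, 13.5% and 23.7% were called between Dex and TNF at 2 h, 24 h and 6 d. The 2 h call was lost on leaving out Dex 2 h replicate 1 or 3 or TNF 2 h replicate 1 or 3 (adjusted p 0.0748 to 0.0978), and the 6 d call on leaving out Dex 6 d replicate 2 (adjusted p = 0.0658). Without the 4 arrays of largest 3' minus 5' difference the 3 differences were 1.13, 0.34 and 0.60, with limma adjusted p = 3.7e-05, 0.104 and 0.0103, in comparisons where 23.1%, 39% and 39.2% of genes were called.

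Comparisons within an agent reuse the arrays on which the rise of Vdr was already known. Their adjusted p values describe those arrays and do not test that rise anew. Within an agent, Vdr was higher at 6 d than at 24 h of Dex by 1.11 (limma adjusted p = 0.0399, 0.683% of genes called). It was higher at 6 d than at 2 h of Dex by 0.86 (adjusted p = 0.0355, 7.45% of genes called). At 24 h of Dex it was 0.26 below 2 h by the means, which was not called (adjusted p = 0.966, 3.62% of genes called). Under TNF Vdr was higher at 6 d than at 2 h by 0.95 (adjusted p = 0.0138, 14.3% of genes called). The TNF 2 h mean, 6.25, was close to the control mean, 6.18. This difference therefore largely repeats the known rise of 1.01 from control to 6 d of TNF, and no conclusion is drawn from its p-value. The differences of 24 h from 2 h, 0.70, and of 6 d from 24 h, 0.25, were not called with all arrays (adjusted p = 0.116 and 0.470, 5.69% and 5.99% of genes called). The first was called without TNF 6 d replicate 2 (adjusted p = 0.0250, 22.1% of genes called). Without the 4 arrays they were 0.53 and 0.73, both called (adjusted p = 0.0311 and 0.00821, 24.2% and 12.9% of genes called). The call for Dex 6 d against Dex 24 h held in only 6 of the 21 fits that left out 1 array, with adjusted p up to 0.224. The call for Dex 6 d against Dex 2 h held in 16 of 21 (adjusted p up to 0.155), and that for TNF 6 d against TNF 2 h in 19 of 21 (up to 0.0673).

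In order of mean level, Vdr stood highest at Dex 6 d, then Dex 2 h, TNF 6 d, Dex 24 h, TNF 24 h, TNF 2 h and control. Dex 6 d lay apart from the next group, and every other pair of neighbours in that order overlapped.

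The bases before the Vdr start are shown because Vdr was the one member whose 3 arrays all lay above control at a time of each agent. RefSeq's promoter table (GRCm38.p6) held all 4 members. The stretch is chr15:97908297-97908546, the 250 bases before the start on the minus strand, 5′ to 3′, with each match to the GC box GGGCGG in capitals.
Vdr promoter: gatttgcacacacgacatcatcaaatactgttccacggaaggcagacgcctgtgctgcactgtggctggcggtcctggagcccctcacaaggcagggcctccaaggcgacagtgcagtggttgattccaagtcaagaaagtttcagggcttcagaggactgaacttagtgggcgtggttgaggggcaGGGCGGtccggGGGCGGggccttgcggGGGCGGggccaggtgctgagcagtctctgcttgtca
The GC box, a binding site of Sp-family factors, occurred 3 times, its first base 63, 52 and 36 bases before the start, and 61.2% of the 250 bases were G or C, against a median of 52.4% over 32851 such windows. At least 1 GC box on either strand was present in 32.7% of those windows. The glucocorticoid receptor core motif AGAACA, the nuclear receptor core motif AGGTCA and an NF-kB site had no match on either strand, and 16.1%, 14.0% and 7.3% of all windows held them. The window before the upstream Rxra start in the table had 3 GC boxes and no match to the other 3 motifs, and that before its downstream start had 2 matches to AGGTCA. The motifs do not overlap each other in these windows.

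Rxra, the RXR form found in most tissues, was higher under Dex at all 3 times, and at 2 h and 24 h of TNF every array lay below control. On 1454773_at the control arrays read 9.87, 9.93 and 9.92. The Dex arrays read 10.58, 10.50 and 10.37 at 2 h, 10.68, 10.64 and 10.70 at 24 h, and 10.51, 10.59 and 10.45 at 6 d. The TNF arrays read 9.41, 9.67 and 9.39 at 2 h, 9.70, 9.59 and 9.67 at 24 h, and 9.88, 10.03 and 9.82 at 6 d. Every Dex array lay above every control and every TNF array. Of all genes, 12.4%, 16.8% and 16.5% had Dex arrays wholly above control at 2 h, 24 h and 6 d.

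Rxra rose by 0.58 ± 0.13 (SE; 1.49-fold) after 2 h of Dex, by 0.77 ± 0.13 (1.71-fold) after 24 h and by 0.61 ± 0.13 (1.53-fold) after 6 d (limma adjusted p = 0.0185, 0.00122 and 0.00502). It was 1 of the 3 RXR genes called at each Dex time, where 2.48%, 4.18% and 8.3% of all genes were called. Leaving out any 1 control array, or Dex 2 h replicate 1 or 2, ended the 2 h call (adjusted p 0.0573 to 0.120). After 2 h of TNF Rxra averaged 9.49 ± 0.16 and in control 9.91 ± 0.03 (SD, n = 3 each), a difference of -0.42 that was not called with all arrays (limma adjusted p = 0.111) and was called without TNF 6 d replicate 2 (adjusted p = 0.00470, 10.7% of genes called). After 24 h of TNF the difference of -0.25 was not called in either fit (adjusted p = 0.329 and 0.0551), but was called without the 4 arrays of largest 3' minus 5' difference (-0.26, adjusted p = 0.0121, 30.4% of genes called). With all arrays 3.82% and 8.69% of genes were called at those times, and 22.9% and 35.8% had groups that did not overlap. At 6 d of TNF the levels overlapped the control and the difference was 0.0036 (adjusted p = 0.987), or -0.058 without TNF 6 d replicate 2.

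Between the agents, Rxra was higher under Dex than under TNF by 0.995 ± 0.13 at 2 h, 1.02 ± 0.13 at 24 h and 0.61 ± 0.13 at 6 d (limma adjusted p = 3.5e-05, 1.7e-05 and 0.00290), with no overlap at any time. Of all genes, 17.3%, 24.4% and 25% lay wholly higher under Dex than under TNF at those times. It was also higher at 6 d than at 2 h of TNF by 0.42 (adjusted p = 0.0401). That call held in 8 of the 21 fits that left out 1 array, and the difference was -0.14 on the other bright probe set.

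The Rxra probe set 1425762_a_at gave the same direction for Dex with smaller differences. Its control arrays read 7.27, 7.16 and 7.28, and its Dex arrays 7.33, 7.25 and 7.35 at 2 h, 7.71, 7.84 and 7.53 at 24 h, and 7.74, 7.65 and 7.35 at 6 d. With it in place of the brighter one, the differences from control under Dex were 0.07, 0.46 and 0.35, none of them called (limma adjusted p = 0.9999, 0.170 and 0.272). The TNF differences were -0.20, -0.24 and -0.35, and Dex exceeded TNF by 0.28, 0.70 and 0.69, with no overlap at any time. The third Rxra probe set, 1430497_at, stayed under the median of all values, 5.343, on all 21 arrays, with group means of 4.10 to 4.49.

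Rxrb, an RXR form also found in most tissues, had 1 probe set, 1416990_at. Its control arrays read 9.45, 9.44 and 9.75. The Dex arrays read 9.72, 9.59 and 9.36 at 2 h, 9.88, 9.93 and 9.88 at 24 h, and 9.75, 10.17 and 9.79 at 6 d. The TNF arrays read 9.10, 9.61 and 9.30 at 2 h, 9.50, 9.52 and 9.81 at 24 h, and 9.43, 9.14 and 9.32 at 6 d. The Dex arrays at 24 h and 6 d lay above control and the TNF arrays at 6 d below it, and the other 3 groups overlapped the control. At 6 d the margins were narrow. The lowest Dex 6 d array read 9.755 and the highest control array 9.748, while the highest TNF 6 d array read 9.426 and the lowest control array 9.444. Of all genes, 16.8% and 16.5% lay wholly above control at those Dex times, and 23.5% wholly below it at 6 d of TNF.

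None of the 6 differences of Rxrb from control was called with all arrays. They were 0.01, 0.35 and 0.36 after 2 h, 24 h and 6 d of Dex, and -0.21, 0.06 and -0.25 after the same times of TNF (limma adjusted p 0.293 to 0.9999), and none had an unadjusted p under 0.05. In the comparison of Dex 24 h with control, where same-numbered arrays moved together, the fit of those 6 arrays with the replicate number as a block called it (adjusted p = 0.0244), as did the fit without the 4 arrays of largest 3' minus 5' difference (adjusted p = 0.0154, 23.3% of genes called). Without those 4 arrays the difference at 2 h of TNF was also called (-0.35, adjusted p = 0.0360). Dex exceeded TNF at 6 d by 0.61 ± 0.18 (limma adjusted p = 0.0181; 0.53 and adjusted p = 0.0158 without TNF 6 d replicate 2). The call was lost without Dex 6 d replicate 2 (0.48, adjusted p = 0.0920). At 2 h and 24 h Dex exceeded TNF by 0.22 and 0.29, which was not called with all arrays (adjusted p = 0.875 and 0.371) and was called without the 4 arrays (0.36 and 0.39, adjusted p = 0.0274 and 0.00980).

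Rxrg, an RXR form known mainly from muscle and brain, was lower on average in all 6 treated groups. On 1418782_at the control arrays read 7.67, 7.72 and 7.14. The Dex arrays read 6.93, 6.94 and 6.67 at 2 h, 7.31, 7.35 and 6.67 at 24 h, and 6.83, 6.66 and 6.94 at 6 d. The TNF arrays read 7.15, 7.0 and 7.03 at 2 h, 7.27, 7.5 and 6.79 at 24 h, and 6.93, 5.78 and 6.69 at 6 d. Dex at 2 h and 6 d and TNF at 6 d lay below every control array, and the lowest array of all, 5.78, was TNF 6 d replicate 2. Of all genes, 12.8%, 20.7% and 23.5% lay wholly below control in those groups.

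Rxrg fell by 1.05 ± 0.26 (SE) after 6 d of TNF (limma adjusted p = 0.0123, where 15.2% of all genes were called). Without TNF 6 d replicate 2 the difference was -0.70 ± 0.22 (adjusted p = 0.0248, 20.5% of genes called). In the fit of the 6 arrays of these groups alone it was not called (adjusted p = 0.385), nor without control replicate 1 or 2 (adjusted p = 0.0538 and 0.0601). The Dex differences were -0.66, -0.40 and -0.70 at 2 h, 24 h and 6 d, not called with all arrays (adjusted p = 0.389, 0.750 and 0.127). At 2 h and 6 d they were called without TNF 6 d replicate 2 (adjusted p = 0.0414 and 0.0109, 7.12% and 24% of genes called), and at 24 h in the fit of 6 arrays with the replicate number as a block (adjusted p = 0.0186). Differences of -0.45 and -0.32 at 2 h and 24 h of TNF were not called (adjusted p = 0.720 and 0.620). No difference between Dex and TNF was called for Rxrg by limma, and 0 of 3 had an unadjusted p under 0.05: at 2 h, 24 h and 6 d they were -0.21, -0.08 and 0.34, with 95% intervals of -0.76 to 0.34, -0.62 to 0.47 and -0.21 to 0.89. The last was -7.9e-05 without TNF 6 d replicate 2.

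**Figure D2:**
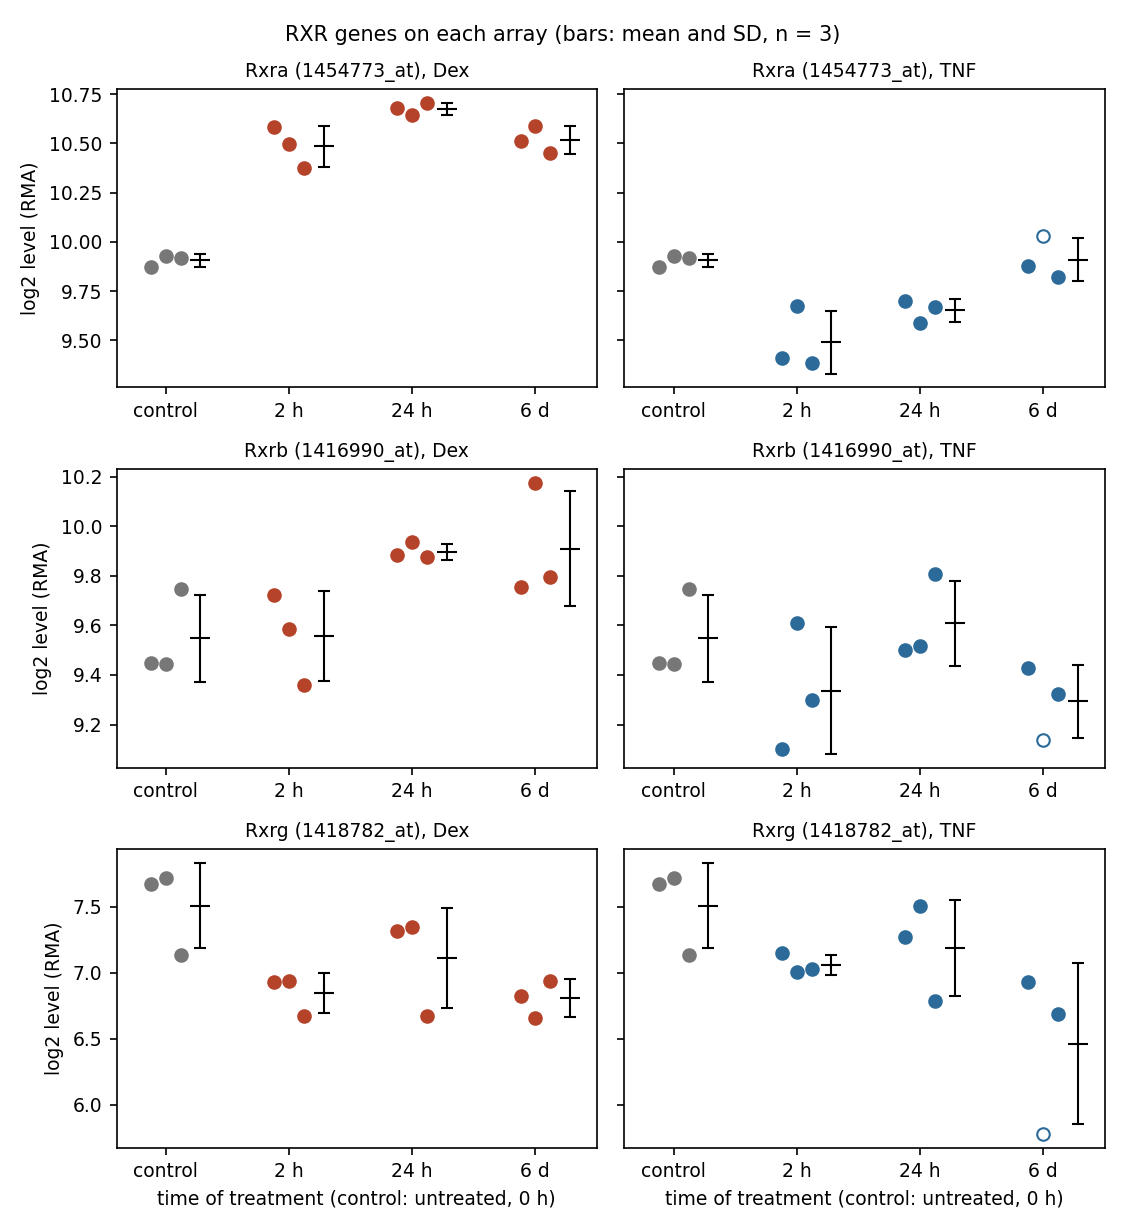
Log2 level of Rxra, Rxrb and Rxrg on each array for Dex (left) and TNF (right), with control at the left of each time series. Filled points are arrays, the open point is TNF 6 d replicate 2, and bars give the mean and SD of 3 arrays. Rxra under Dex lies above control at every time, Rxra under TNF lies below it at 2 h and 24 h, and the lowest Rxrg array is TNF 6 d replicate 2.

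By mean level, Rxra ran from Dex 24 h, Dex 6 d and Dex 2 h through TNF 6 d and control to TNF 24 h and TNF 2 h. In that order Dex 24 h and Dex 6 d, Dex 2 h and TNF 6 d, and control and TNF 24 h were the neighbours that did not overlap. Rxrb ran from Dex 6 d, Dex 24 h, TNF 24 h, Dex 2 h and control to TNF 2 h and TNF 6 d, where the one pair of neighbours that did not overlap was Dex 24 h and TNF 24 h. Rxrg ran from control, TNF 24 h, Dex 24 h, TNF 2 h, Dex 2 h and Dex 6 d to TNF 6 d, where TNF 2 h and Dex 2 h did not overlap and all other neighbours did.

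Array quality and the replicate spread of these genes were set side by side. Replicate 2 of Dex 6 d, replicate 2 of TNF 2 h and replicate 3 of TNF 24 h, the arrays with a 3' minus 5' difference of 0.683 to 0.777, held the highest Vdr and the highest Rxrb of their groups in 3 of 3 groups, and the lowest Rxrg in 3 of 3. Rxra was highest there in 2 of the 3. TNF 6 d replicate 2, with a difference of 2.00, went the other way for Vdr and Rxrb, which were lowest of their group there, while Rxra was highest and Rxrg lowest. These places hold for the brightest probe set of each gene. On the other Vdr probe set, 1418175_at, Dex 6 d replicate 2 was the lowest of its group, at 7.74. On the Rxra probe set 1425762_a_at, TNF 2 h replicate 2, TNF 24 h replicate 3 and TNF 6 d replicate 2 were the lowest of their groups, at 6.93, 6.94 and 6.49. Without the 3 arrays of 0.683 to 0.777 and TNF 6 d replicate 2, the SE of a Vdr difference from control was 0.14 to 0.16, against 0.24 with all arrays, and the percentage of all genes called against control was 12.6 to 33.3, against 2.48 to 15.2. The part of RNA quality in the differences between groups was not tested further.

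**Figure D3:**
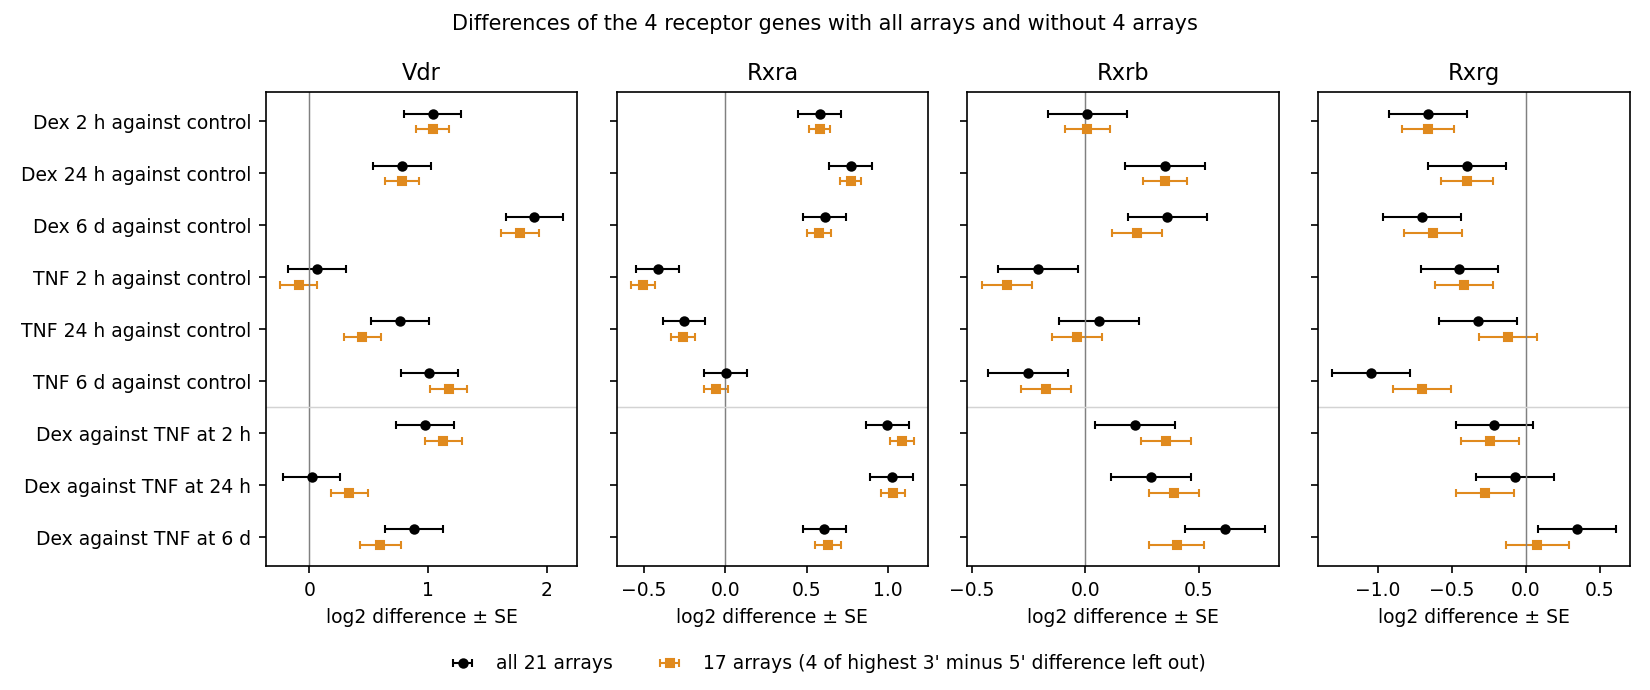
Log2 differences with their SE for each receptor gene, for each treatment against control and, under the line, for Dex against TNF. Black circles are from all 21 arrays and orange squares from 17 arrays, without the 4 of largest 3' minus 5' difference. Vdr and Rxra lie right of 0 at all 3 Dex times in both, and Vdr at 2 h of TNF is 0.06 with 21 arrays and -0.09 with 17.

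Genes of vitamin D supply were mostly too dim to follow. Of 9 genes of vitamin D synthesis, transport and breakdown, 3 were tested, 5 were dim (Cyp2r1, Cyp27a1, Cyp27b1, Cyp24a1 and Lrp2) and Gc had no probe set of its own here. Dhcr7, which takes the vitamin D precursor into cholesterol, had 8.23, 8.44 and 8.72 after 6 d of Dex and 10.04, 10.34 and 10.51 in control, with no overlap, and fell by 1.83 (limma adjusted p = 7.8e-05). Its difference of -0.87 after 24 h of Dex was not called with all arrays (adjusted p = 0.0693) and was called without TNF 6 d replicate 2 (adjusted p = 0.0144). Cubn, a receptor that takes up vitamin D bound to its carrier, rose by 0.82 after 24 h and 0.68 after 6 d of TNF (adjusted p = 0.00148 and 0.00717). Its levels were 5.05 to 5.66 on the 6 arrays and 4.45 to 4.69 in control. In control, at all Dex times and at 2 h of TNF its group means were 4.46 to 4.67, under the median of all values. Cubn was thus bright enough to be tested only through the later TNF arrays. Its p-values are therefore not independent of that choice, and no conclusion is drawn from them. Pdia3, a membrane-associated vitamin D binding protein, was called by limma in 0 of the 6 comparisons, with 0 at an unadjusted p under 0.05. The list's median differences over its 3 tested genes ran from -0.17, at 6 d of TNF, to 0.04, against -0.23 to -0.0025 over all genes, and the first was 0.43 without TNF 6 d replicate 2.

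Cyp24a1 and Cyp27b1 were below 5.343 in all 7 group means. Cyp24a1 read 4.04 to 4.67 after 6 d of Dex, where Vdr was highest, and 4.50 to 4.64 in control. After 6 d of TNF it read 4.14, 4.65 and 5.79. Cyp27b1 read 3.86 to 4.48 after 6 d of Dex, 3.89 to 5.21 after 6 d of TNF and 3.88 to 4.19 in control. Both enzymes were too dim to be tested. At this brightness a fall or a small rise could be missed, and Cyp24a1 showed no large rise after 6 d of Dex.

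Of 20 textbook targets of the vitamin D receptor, 7 were tested, 9 were dim and 4 had no probe set of their own here. With all arrays 1, 1 and 3 of the 7 were called higher after 2 h, 24 h and 6 d of Dex, where 1.66%, 2.06% and 3.22% of all genes were, and 1, 2 and 2 after the same times of TNF, where 2.95%, 5.41% and 4.52% were. One, Lrp5, was called lower at 6 d of both agents. The list's medians were 0.24, 0.09 and 0.67 under Dex and 0.35, 0.08 and -0.14 under TNF, against -0.02, -0.0025, -0.02, -0.05, -0.03 and -0.23 over all genes. The median at 6 d of TNF was 0.39 without TNF 6 d replicate 2, so its sign rests on that array.

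Without TNF 6 d replicate 2 more genes were called in both directions at 2 h and 24 h of either agent. Of all genes 4.29%, 6.39% and 10.4% were then called higher after 2 h, 24 h and 6 d of Dex, and 6.59%, 13.2% and 10.5% after the same times of TNF. The shares called lower were 2.83%, 6.79% and 13.5% for Dex and 4.08%, 12.4% and 9.93% for TNF. Of the 7 targets of the vitamin D receptor, 2, 2 and 4 were called higher under Dex and 2, 3 and 3 under TNF, and 1 was called lower at 6 d of Dex, 1 at 2 h of TNF and 2 at 6 d of TNF.

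Cdkn1a, the cell cycle inhibitor p21, had 11.59, 12.02 and 12.24 after 2 h of Dex and 9.70, 10.07 and 10.11 in control. It rose by 1.99, 1.57 and 1.54 at the 3 Dex times (limma adjusted p = 5.3e-06, 8.7e-05 and 5.5e-05) and by 1.09 at 2 h of TNF (adjusted p = 0.00255), where the Vdr arrays overlapped control. At 24 h and 6 d of TNF its differences were 0.08 and -0.58, not called with all arrays, and the second was -0.69 and called without TNF 6 d replicate 2 (adjusted p = 0.0159). Cdkn1a was called higher at all 3 Dex times and at 2 h of TNF, and not at the later TNF times. A part of Vdr in these differences was not tested.

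Igfbp3, a carrier of insulin-like growth factors, had 11.04, 11.31 and 11.45 after 24 h of TNF and 8.01, 8.17 and 8.21 in control. It rose by 3.14 there, by 1.54 after 6 d of TNF (2.06 without replicate 2) and by 1.22 after 6 d of Dex (adjusted p = 8.6e-07, 0.00259 and 0.0146). Cd14, the lipopolysaccharide co-receptor, rose by 1.77 at both 24 h and 6 d of TNF (adjusted p = 0.00759 and 0.00739; 2.51 at 6 d without replicate 2). Cd14 is also on the macrophage marker list. The summed level of that list was 9.27 to 9.52 at 24 h of TNF, 8.82 to 9.71 at 6 d of TNF and 8.33 to 8.39 in control. This sum includes Cd14 itself, so it is not separate from the rise of Cd14. Of the 8 genes on that list 4 were tested. At 24 h of TNF Cd68, a lysosomal protein of macrophages, rose by 1.57 (adjusted p = 0.00127). Its mean was 6.78 there and 4.99 to 5.33 in every other group, under the median of all values. The TNF 24 h arrays alone were thus enough for Cd68 to be tested. Its p-value is not independent of that choice, and no conclusion is drawn from it. Csf1r, the receptor for macrophage colony-stimulating factor, differed at 24 h of TNF by 0.51 (adjusted p = 0.227, or 0.0403 without TNF 6 d replicate 2), and Lyz2 by 0.21 (adjusted p = 0.563). At 6 d of TNF Cd14 was called and Cd68, Csf1r and Lyz2 were not. The remaining 4, Ptprc, Adgre1, Itgam and Aif1, had group means of at most 4.66, under the median of all values, in all 7 groups. The part of macrophage-like expression in the levels of Vdr and its targets was not tested. Txnip, a thioredoxin inhibitor first described as induced by vitamin D, rose by 0.67 after 6 d of Dex (adjusted p = 0.0397), with 12.88, 12.89 and 12.997 under Dex and 12.12, 12.15 and 12.49 in control. Lrp5, a Wnt co-receptor, fell by 0.74 after 6 d of Dex and by 0.64 after 6 d of TNF (adjusted p = 0.00967 and 0.0205).

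Of 16 coactivators and corepressors 14 were tested. In each of the 6 comparisons 1 of the 14 was called lower, where 0.814%, 2.11%, 5.08%, 0.872%, 3.27% and 10.7% of all genes were. At 6 d of TNF 1 was called higher, where 4.52% of all genes were. No conclusion about the list is drawn from counts this small. Nrip1, which represses nuclear receptors (RIP140), had 9.55, 9.78 and 10.63 after 2 h of TNF and 11.78, 11.85 and 12.06 in control. It fell by 1.91 there, by 1.10 after 24 h of TNF and by 1.09 after 2 h of Dex (limma adjusted p = 0.000185, 0.0163 and 0.0443). Hr, the corepressor Hairless, which binds the vitamin D receptor, fell by 0.69 after 24 h of Dex (adjusted p = 0.0206). Hr also fell by 1.08 after 6 d of Dex and fell by 1.05 after 6 d of TNF (adjusted p = 0.000228 and 0.000487). Snw1, a coactivator of the vitamin D receptor, rose by 0.61 after 6 d of TNF (adjusted p = 0.0218; 0.44 and 0.0211 without replicate 2). The list's medians ran from -0.31, at 6 d of TNF, to 0.22, at 6 d of Dex, and the first was 0.04 without TNF 6 d replicate 2. Without that array 1 was called higher at 2 h and 1 at 6 d of Dex, 2 at 24 h and 1 at 6 d of TNF, and 2 were called lower at 24 h of TNF and 1 in each other comparison.

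Among 15 other partners of RXR, 9 were tested, 5 were dim and 1 had no probe set of its own here. With all arrays 1 was called higher at 24 h of Dex (2.06% of all genes) and 1 at 24 h of TNF (5.41%), and 1 was called lower at 2 h (0.872%) and at 6 d of TNF (10.7%). Without TNF 6 d replicate 2, 1 was called higher at each Dex time, 2 at 2 h and 1 at 24 h of TNF, and 1, 3 and 2 were called lower at 2 h, 24 h and 6 d of TNF. At 2 h and 6 d of Dex limma called 0 of 9, with 2 of 9 at an unadjusted p under 0.05 each time. The list's medians ran from -0.28, at 6 d of TNF, to 0.04, and the first was -0.08 without TNF 6 d replicate 2. Pparg, the fat cell regulator PPAR gamma, had 11.23, 11.28 and 11.45 after 2 h of TNF and 12.65, 12.73 and 12.76 in control, and fell by 1.40 (limma adjusted p = 0.0254). At 6 d of TNF it fell by 1.38 (adjusted p = 0.0126), or by 0.71 (adjusted p = 0.000381) without replicate 2, which read 9.97 while the others read 12.004 and 12.02. Under Dex the Pparg differences were -0.19, 0.02 and -0.21, none called. Ppard, the form PPAR delta, rose by 0.93 at 24 h of TNF (adjusted p = 0.0372), and Thra, thyroid hormone receptor alpha, rose by 0.65 at 24 h of Dex (adjusted p = 0.0154).

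The last list holds the enzymes that make and clear retinoic acid, a ligand of RXR's retinoid partners. Of 15 genes of retinoid metabolism and binding, 7 were tested, 7 were dim and 1 had no probe set of its own here. With all arrays 2 were called higher at 24 h (2.06% of all genes) and 2 at 6 d of Dex (3.22%). At 6 d of Dex 1 was called lower (5.08%), as were 2 at 24 h (3.27%) and 1 at 6 d of TNF (10.7%). Without TNF 6 d replicate 2 the higher calls were 2, 2 and 3 under Dex and 1, 2 and 2 under TNF, and the lower calls 0, 1 and 1 under Dex and 1, 3 and 2 under TNF. At 2 h limma called 0 of 7 under either agent, with 3 of 7 at an unadjusted p under 0.05 each time. The list's medians ran from -0.14 to 0.13. At 6 d of TNF the median was -0.07, or -0.15 without TNF 6 d replicate 2. Aldh1a1, a retinaldehyde dehydrogenase that makes retinoic acid, had 10.12, 10.15 and 10.41 after 24 h of Dex and 5.89, 6.00 and 6.84 in control. It rose by 3.99 there and by 3.80 after 6 d of Dex (limma adjusted p = 8.3e-06 and 7.6e-06), the largest changes of any gene on these lists. Cyp26b1, which breaks down retinoic acid, rose by 1.78 after 6 d of Dex (adjusted p = 0.000117).

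Dhrs3, which turns retinaldehyde back to retinol, moved in opposite directions under the 2 agents. It had 9.50, 9.53 and 9.54 after 24 h of Dex, 7.18, 7.59 and 7.76 after 24 h of TNF, and 8.86, 8.87 and 8.90 in control. Dhrs3 rose by 0.65 at 24 h of Dex (limma adjusted p = 0.0325) and fell by 1.36 and 1.34 at 24 h and 6 d of TNF (adjusted p = 1.5e-05 and 5.9e-05). Fabp5, a fatty acid and retinoic acid binding protein, fell by 0.41 at 6 d of Dex and by 0.36 at 24 h of TNF (adjusted p = 0.0073 and 0.0184).

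**Figure D4:**
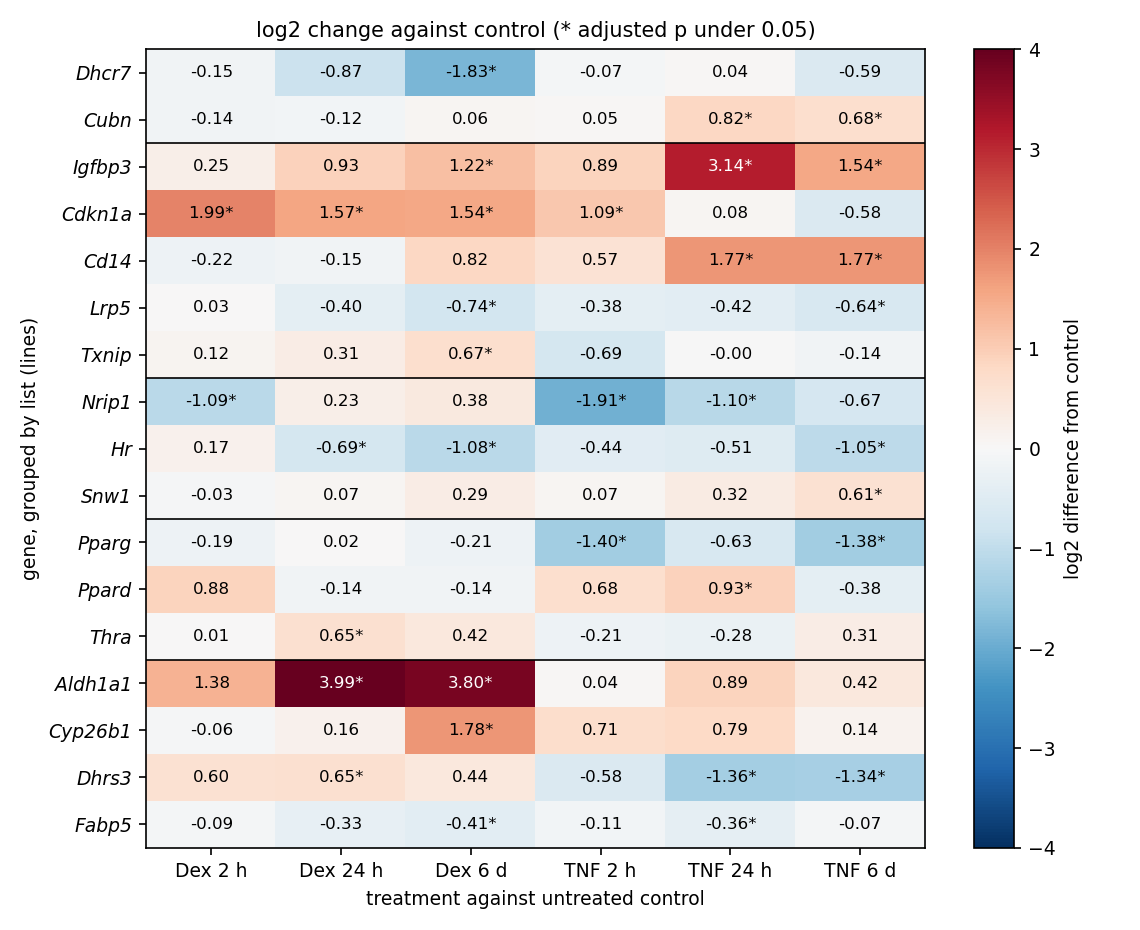
Log2 difference from control (colour and printed value) of the genes called in at least 1 comparison, up to 5 a list, with Dex at the left and TNF at the right. Rows are grouped by lines, from the top, into vitamin D supply, vitamin D receptor targets, coregulators, other RXR partners and retinoid metabolism. An asterisk marks a limma adjusted p under 0.05 with all arrays; Aldh1a1 is highest under Dex and Igfbp3 at 24 h of TNF.

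The markers of cell state moved with time as well. The summed level of 8 measured adipocyte markers was 16.25 to 16.53 at 24 h and 16.12 to 16.56 at 6 d of TNF, against 16.80 to 16.85 in control, and 4 of 7 tested were called lower at each time, where 3.27% and 10.7% of all genes were. Without TNF 6 d replicate 2 these counts were 6 and 4 of 7. The summed level of 7 preadipocyte or fibroblast markers was 13.67 to 13.99 at 6 d of Dex, where Vdr was highest, and 14.90 to 15.01 in control. The brightest of them, Col3a1, weighs most in that sum and averaged 13.20 and 14.52 there. At 6 d of Dex 4 of 6 tested were called lower (5 of 6 without TNF 6 d replicate 2), where 5.08% of all genes were. Pdgfra went the other way, at 11.71 against 11.33 in control. At 24 h and at 6 d of TNF 2 of the 6 were called higher, where 5.41% and 4.52% of all genes were. At 24 h Thy1, Dlk1, Col1a1 and Col3a1 averaged under control and the list's median was -0.10. Without TNF 6 d replicate 2, 1 was called lower at 24 h, where 12.4% of all genes were. The median at 6 d was 0.30, or 0.17 without that array. The summed level was 14.95 to 15.07 at 24 h and 14.73 to 15.40 at 6 d of TNF, overlapping control. Fewer cells of a type and less RNA per cell cannot be told apart in these bulk samples, and the part of either in the receptor differences was not tested.

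The genes whose levels followed Vdr most closely over the 21 arrays were Itprip (Pearson r = 0.865), Tmpo, a nuclear lamina protein (0.829), Snhg1, a small nucleolar RNA host gene (0.822), Harbi1 (0.808), Ankrd10 (0.804) and Ifi207, an interferon-inducible gene (0.785). These arrays share groups, control and array quality, so the correlations describe the arrays and carry no test. Of the 6 genes, 3 stayed among the closest 6 without TNF 6 d replicate 2, where Snhg1 reached 0.936, 3 over the 7 group means and 2 by Spearman's correlation. Itprip had 6.00, 6.09 and 6.16 after 6 d of Dex and 4.73, 4.75 and 4.76 in control, where it was under the median of all values. Ifi207 had 9.10, 9.52 and 9.69 after 6 d of Dex and 4.41, 4.70 and 5.26 in control.

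Closest to Rxra were Zbtb16, a zinc finger transcription factor (r = 0.959), Foxo1, a forkhead factor held back by insulin signalling (0.955), and Kctd6 (0.949). Foxo1 had 10.73, 10.79 and 11.06 after 2 h of Dex, 8.61, 8.65 and 9.16 after 2 h of TNF, and 9.78, 9.96 and 9.96 in control. Closest to Rxrb were Dnajc16 (0.915), Cipc, a repressor of the circadian factor Clock (0.891), and Klhl21 (0.890). Closest to Rxrg were Fbxl15 (0.842), Pqlc3 (0.837) and Sfxn4 (0.832), and without TNF 6 d replicate 2 these fell to 0.696, 0.695 and 0.673. Among the members themselves, Vdr correlated with Rxra at 0.58, with Rxrb at 0.55 and with Rxrg at -0.51, the last -0.71 without TNF 6 d replicate 2, and Rxra with Rxrb at 0.66.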

How the data were processed

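RNA from 21 samples of 3T3-L1 adipocytes was hybridised as biotinylated cRNA to Affymetrix mouse arrays, 1 per sample. Per the labels and the submitters' processing notes, the authors normalised by RMA; the deposited values, taken as log2 from their range (2.70 to 15.06), were used as given, and software versions and a genome build are not given in the sources used here. All 21 columns matched a sample. The members and gene lists were chosen with earlier results of these data known.

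Of 45101 probe sets, 34958 list 1 gene, 932 several and 9211 none; 34754 were named through the Entrez identifier in RefSeq's gene table and 204 kept the platform symbol. Per gene the single-gene probe set with the highest mean was used, and genes with at least 3 arrays above the median of all values, 5.343, were tested. limma 3.58.1 (R 4.3.3) fitted a mean per group over 21 arrays with a variance trend (14 residual and 3.96 prior degrees of freedom), with Benjamini-Hochberg adjustment over 12156 genes. Exact permutation of 3 against 3 arrays cannot give a p under 0.1, so it was not used. In a test on simulated data for TNF 24 h against control (12156 genes), 8%, 50%, 94% and 100% of 50 genes each were recovered at log2 changes of 0.5, 1, 2 and 4, with 3.08% false calls. The number of arrays limits precision. The highest correlation between arrays was 0.99834, and no array was counted as a duplicate.

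The labels give replicate numbers 1 to 3 in every group. Same-numbered arrays deviated together (all r above 0.1) in 2 of 15 comparisons, r 0.233 to 0.447 for Dex 24 h against control and 0.207 to 0.270 for Dex against TNF at that time; the labels do not say what a number shares.

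Named genes were the 4 members, up to 5 called genes a list by size of change, the 6 genes most correlated with Vdr and 3 with each RXR gene, and Cyp24a1, Cyp27b1, Txnip, Pparg, Fkbp5 and Tnfaip3. Alternatives were 13 other settings, leaving out each of 21 arrays, and 2 settings chosen after seeing the data, a fit with the 3' minus 5' difference (mean of actin and Gapdh control probes) as a covariate and one without the 4 arrays where it was largest. Sequences came from RefSeq's promoter table (GRCm38.p6), scanned on both strands in Python 3.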

Additional observations from a re-analysis of the deposited data

Results flagged for a closer look

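Differences between Dex and TNF at the same time are listed because the test of the difference itself passed the threshold. Rxra was higher under Dex than under TNF by 0.995 at 2 h, by 1.02 at 24 h and by 0.61 at 6 d (limma adjusted p = 3.5e-05, 1.7e-05 and 0.00290). Vdr was higher under Dex by 0.97 at 2 h and by 0.88 at 6 d (limma adjusted p = 0.0169 and 0.0142), and Rxrb by 0.61 at 6 d (limma adjusted p = 0.0181). The 2 h difference of Vdr largely repeats its known rise from control under Dex, and no conclusion is drawn from its p-value. Of all genes tested, 5.97%, 13.5% and 23.7% were called in these comparisons at 2 h, 24 h and 6 d, and TNF 6 d replicate 2, which stood apart, is in the 6 d values. Without it the 6 d differences were 0.67 for Rxra, 0.72 for Vdr and 0.53 for Rxrb, all called. Without Dex 6 d replicate 2 the 6 d calls of Vdr and Rxrb were lost. The 2 h call of Vdr held in 17 of the 21 fits that left out 1 array, and the Rxra calls held in all 21.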

How the results depend on the processing

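The rise of Vdr and of Rxra under Dex kept its direction in every setting, while sizes and calls moved, in most cases for causes that were not tested. The 4 member genes gave 933 alternative values for the comparisons tested or described; 845 kept direction and side of the threshold, 23 lost a call, 32 gained one, 5 moved by more than the replicate spread and 28 changed sign, most of them near 0. On probe set 1418175_at Vdr differed from control by 0.71, 0.54, -0.43 and 0.49 at Dex 2 h, Dex 24 h, TNF 2 h and TNF 6 d, and on the mean of both probe sets by -0.18 and 0.75 at TNF 2 h and TNF 6 d. With array weights TNF 2 h gave -0.0086, with RNA quality (3' minus 5' probes) as a covariate -0.057, and without the 4 arrays -0.091; the covariate gave 1.28 at TNF 6 d. Vdr between Dex and TNF gave -0.029 at 24 h under cyclic loess, and 0.88 at 6 d in the fit of the 2 groups alone without and with the replicate block (adjusted p = 0.184 and 0.443).

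For Rxra, Dex 2 h gave 0.25 on the mean of probe sets, and Dex 2 h, 24 h and 6 d lost their calls at 0.55, 0.74 and 0.60 under cyclic loess and at 0.075, 0.46 and 0.35 on 1425762_a_at. TNF 2 h became called at -0.42 without a variance trend, -0.51 with array weights, -0.45 with the covariate and -0.51 without the 4 arrays, and TNF 24 h at -0.22, -0.28 and -0.26 in the last 3. TNF 6 d gave -0.045 with median centring, -0.069 with array weights, -0.35 on 1425762_a_at, -0.031 with the covariate and -0.058 without the 4 arrays. TNF 6 d against TNF 2 h gave -0.14 on 1425762_a_at.

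For Rxrb, cyclic loess gave -0.025 at Dex 2 h and 0.16 at TNF 6 d. Dex 24 h became called at 0.35 with the replicate block in the 2 groups, 0.44 with array weights, 0.39 with the covariate and 0.35 without the 4 arrays. Dex 6 d became called at 0.32 with weights and 0.29 with the covariate, and TNF 2 h at -0.29 with the covariate and -0.35 without the 4 arrays. TNF 24 h gave -0.018 and -0.038 in the last 2. For Rxrg, Dex 2 h became called at -0.66 in the 2 groups alone, with the replicate block there and without the 4 arrays, at -0.81 with weights and at -0.67 with the covariate. Dex 24 h became called at -0.40 with that block and -0.38 with weights, and Dex 6 d at -0.70 in the 2 groups alone and with the block, -0.83 with weights, -0.64 with the covariate and -0.63 without the 4 arrays. TNF 2 h and 24 h became called at -0.63 and -0.38 with weights, and TNF 6 d lost its call at -1.05 in the 2 groups alone and with the block (adjusted p = 0.385 and 0.594).

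Leaving out 1 array gave these ranges. Vdr ranged from -0.091 to 0.17 at TNF 2 h, and between Dex and TNF from 0.87 to 1.13 at 2 h, -0.27 to 0.34 at 24 h and 0.72 to 0.99985 at 6 d; TNF 6 d against TNF 24 h ranged from -0.044 to 0.57. Rxra ranged from 0.53 to 0.63 at Dex 2 h, -0.51 to -0.36 at TNF 2 h and -0.058 to 0.048 at TNF 6 d. Rxrb ranged from -0.074 to 0.11 at Dex 2 h and -0.038 to 0.16 at TNF 24 h. Rxrg ranged from -0.85 to -0.56 at Dex 2 h, -0.89 to -0.60 at Dex 6 d and -1.28 to -0.70 at TNF 6 d, and between Dex and TNF from -0.27 to 0.14 at 24 h and -7.9e-05 to 0.58 at 6 d.

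Same-numbered arrays deviated together in the comparison of Dex 24 h with control and in that of Dex with TNF at 24 h. In the second the replicate block changed no call of the members. The numbers are not known to pair the arrays elsewhere, and the block over all groups changed no call of the members. Of 119 called results of other named genes, 3695 of 4026 alternative values stayed called in the same direction, 331 were no longer called and 0 reversed. Over all genes, 301, 508, 1009, 464, 1056 and 1851 were called at Dex 2 h, 24 h and 6 d and TNF 2 h, 24 h and 6 d. The highest counts, with array weights, were 2219, 5309, 5528, 4951, 6665 and 5469, and the lowest were 208, 297, 682, 334, 755 and 2, the last with the replicate block in the 2 groups. The 3 arrays a group limit what could be seen: in the simulation a log2 change of 0.5 was recovered in 8% of genes.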
